A study of Mus musculus with 4 samples.

Results

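The genes examined here are 8 mouse genes of viral RNA sensing and restriction, followed for binding of IRF2, an interferon regulatory factor, in small-intestinal stem cells. They are the RNA helicase genes Ifih1, Dhx58 and Ddx60, the kinase gene Tbk1, the restriction factor genes Mov10, Shfl and Apobec3, and the nucleotide kinase gene Cmpk2. These 8 genes, of 21887 protein-coding genes in the reference table, were selected on the peaks of these same libraries, together with their known functions. Their peak positions and heights are therefore given as a description with no test. An IRF2 peak lay within 5000 bp of an end of 7 of the 8 genes in at least 1 library: both libraries had one at Ddx60, Tbk1 and Mov10, replicate 1 alone at Ifih1, Shfl and Apobec3, and replicate 2 alone at Cmpk2. Dhx58 had none.

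The measurements are IRF2 ChIP-seq peak lists from intestinal stem cells of Lgr5-EGFP-Ires-CreERT2 mice, which carry a fluorescent and Cre-recombinase reporter driven from the Lgr5 stem cell gene. All 4 samples of the series have this genotype: 2 were precipitated with an antibody against IRF2 (Abcam, ab124744) and 2 are inputs with no antibody. According to the design text the cells came from 5 mice, but it does not tie a mouse to a sample, and the labels give no age and no treatment. The inputs were not analysed here, so there was no control against which to set a peak.

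Replicate 1 (Takara in its title) holds 380 peaks and replicate 2 (Tokyo in its title) holds 238, of which 55 and 54 overlapped a peak of the other library and formed 53 joined regions. Each peak has a summit value, the authors' own score, whose unit is not stated; it ran from 13 to 169 (median 22.5) in replicate 1 and from 10 to 80 (median 14) in replicate 2. Values were ranked only within their own list, with rank 1 for the highest. Read depth is unknown, so a gene without a peak is one where no peak was called at the authors' threshold. Each value comes from a single library and has no replicate error. Peak lists hold no expression values, so the labelled cell type could not be checked against its markers.

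Cells recognise viral RNA in the cytoplasm through helicases. The protein of Ifih1 (MDA5) binds long double-stranded RNA and signals through the mitochondrial adaptor MAVS to kinases that include TBK1, which phosphorylates IRF3 and so switches on type I interferon genes. The restriction factors among the members act on viral nucleic acids or their translation, and many restriction factor genes are themselves induced by interferon. IRF2 recognises the IRF element, a repeat of GAAA with 2 bases between the copies, and is best known as a factor that competes with IRF1 for such sites.

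The reference promoter windows show this element at 3 of the genes that had a peak. RefSeq windows (build GRCm38.p6, whose coordinates mm10 shares) run from 250 bases before an annotated transcription start to 50 after it, and they were at hand for 6 of the 8 genes, all but Shfl and Dhx58. In the lines that follow, capitals mark the IRF element on either strand. The stretches of Ddx60, Apobec3 and Ifih1 hold every match found in those windows. That of Tbk1 runs from the summit of one library to the summit of the other, and that of Cmpk2 from the edge of its peak to the annotated end of the gene. Neither of these holds the element. Each is written 5′ to 3′ in the direction of transcription.
Ddx60 (chr8:61928014-61928086, plus strand): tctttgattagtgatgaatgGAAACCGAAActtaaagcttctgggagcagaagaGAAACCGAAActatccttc
Apobec3 (chr15:79892248-79892307, plus strand): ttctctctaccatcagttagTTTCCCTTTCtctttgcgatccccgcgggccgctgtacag
Ifih1 (chr2:62646206-62646235, minus strand): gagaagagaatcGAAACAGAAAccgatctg
Tbk1 (chr10:121586944-121587008, minus strand): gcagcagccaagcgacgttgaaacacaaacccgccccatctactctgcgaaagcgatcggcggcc
Cmpk2 (chr12:26469038-26469116, plus strand): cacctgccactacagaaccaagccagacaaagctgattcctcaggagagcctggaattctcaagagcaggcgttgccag

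Among the RNA sensors, Ddx60 had a peak in both libraries, Ifih1 in replicate 1 alone and Dhx58 in neither. Ddx60 encodes a DExD/H-box helicase that has been linked to RNA sensing by RIG-I-like receptors. Its replicate 1 peak (chr8:61927809-61928656, 848 bp wide) had a summit value of 37 and ranked 77 of 380. Its replicate 2 peak (chr8:61927995-61928516, 522 bp) had a summit value of 12 and ranked 187 of 238, a value held by 34 peaks. Ddx60 thus stood in the upper part of one list and near the bottom of the other: 21.6% of replicate 1 peaks and 92.4% of replicate 2 peaks had a value at least as high. The smaller peak lay wholly inside the larger, and the midpoints were 159 bp and 182 bp inside the low-coordinate end of the gene. The summits lay 41 bp and 153 bp downstream of the annotated start. Both copies of the element seen in its sequence lay inside both peaks. They began 53 and 19 bases before the start, and the nearer copy was centred 55 bp from the replicate 1 summit and 167 bp from the replicate 2 summit.

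Ifih1 had a narrow replicate 1 peak (chr2:62645928-62646307, 380 bp) with a summit value of 31, which ranked 106 of 380. The peak midpoint lay within Ifih1, 138 bp from the end where transcription starts, and the summit was 143 bp downstream of that start. The single element in the Ifih1 window began 32 bases after the start, inside the peak and 107 bp from the summit. In replicate 2 the nearest peak was 2.61 Mb away. Dhx58 encodes LGP2, the RIG-I-like receptor that lacks the signalling domains of MDA5 and modulates its activity. Its nearest replicate 1 peak (chr11:100735243-100735855, summit value 23) was 31.3 kb beyond its high-coordinate end, inside Rab5c, a small GTPase gene of endosomes, and 2666.5 bp from an end of that gene. It was also 4829.5 bp from an end of Kcnh4, a potassium channel gene. Its nearest replicate 2 peak was 454 kb away. Dhx58 was the single member with no peak within 5000 bp in either library.

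Tbk1, the kinase downstream of the sensors, had the highest-ranked peaks of the 8 genes, level with Mov10 in replicate 2. Its summit values were 43 in replicate 1 (chr10:121586724-121587484, 761 bp, rank 56) and 20 in replicate 2 (chr10:121586735-121587268, 534 bp, rank 29, a value held by 5 peaks). Only 15.5% and 13.9% of the peaks of the respective lists were at least as high, so Tbk1 stood at a similar height in both. The summits were 64 bp apart and lay 214 bp and 150 bp upstream of the annotated start, and Tbk1 was the only member with an annotated start whose summits lay before it. This interval separates Tbk1 from its neighbour Xpot, which encodes the tRNA exporter exportin-T. The replicate 1 midpoint was 309.5 bp from Tbk1 and 276.5 bp from Xpot, and the replicate 2 midpoint was 207 bp from Tbk1 and 379 bp from Xpot. The nearer gene end thus differed between the libraries, so by distance to a gene end the peak cannot be given to Tbk1 alone. The annotated start of Tbk1 lay inside both peaks. The near end of Xpot, at 121587380, lay inside the replicate 1 peak and beyond the replicate 2 peak. Whether that end of Xpot is its start was not examined. The 300-base window of Tbk1, which includes both summits, held neither the element nor the shorter motif AANNGAAA on either strand.

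Mov10, which encodes an RNA helicase that restricts retroviruses and retrotransposons, was the restriction factor gene with a peak in both libraries. The peaks (chr3:104817580-104818433 in replicate 1, chr3:104817516-104818341 in replicate 2) were 854 bp and 826 bp wide and had summit values of 39 (rank 67) and 20 (rank 29, tied with Tbk1). They matched closely in position: the summits were 32 bp apart, and the overlap of 762 bp covered 89.2% of one peak and 92.3% of the other. The table gives Mov10 2 annotated starts, at 104818305 and 104818563. The summits lay 193 bp and 225 bp downstream of the first of these and 451 bp and 483 bp downstream of the other, so they fell inside the gene whichever start is taken. Neither window of Mov10 held the element or the shorter motif; both summits lie beyond the windows, in sequence not examined here. Capza1, an actin-capping protein gene, also had an end within 5000 bp of these peaks, at 4775 bp and 4853 bp.

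Shfl and Apobec3 each had a replicate 1 peak alone. Shfl encodes an inhibitor of programmed ribosomal frameshifting, which retroviruses use to make their polymerase proteins. Its peak (chr9:20868400-20869094, 695 bp) had a summit value of 29 and ranked 120 of 380. The midpoint was 111.5 bp and the summit 85 bp inside the low-coordinate end of Shfl. This was the smallest midpoint distance among the members. Its nearest replicate 2 peak was 1.29 Mb away. Apobec3 encodes a cytidine deaminase that edits retroviral DNA. Its peak (chr15:79892251-79892687, 437 bp) was the lowest of the members in replicate 1, with a summit value of 20 at rank 230, a value held by 30 peaks. The summit lay 104 bp downstream of the start at 79892408, which is 350 bp inside the annotated span of the gene; another start lies at 79895023. The element of Apobec3 is on the strand opposite to transcription. It began 140 bases before the start, near the edge of the peak and 239 bp from the summit. The same peak midpoint was 669.5 bp from an end of the non-coding RNA gene D730005E14Rik, whose annotated span overlaps the low-coordinate end of Apobec3; this neighbour was picked after its values were seen. In replicate 2 the nearest peak was 909 kb from Apobec3.

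Cmpk2, a mitochondrial kinase that supplies pyrimidine nucleotides and is induced by interferon, had the opposite pattern, with a peak in replicate 2 alone (chr12:26469038-26469632, 595 bp). Its summit value of 13 put it at rank 137 of 238, level with 50 peaks of that value. The summit was 161 bp downstream of the annotated start, which is itself 98 bp inside the gene's span. In replicate 1 no peak was called closer than 13.1 Mb. The Cmpk2 window held neither the element nor the shorter motif, but it ends 50 bases after the start, so the summit and most of the peak lay outside it and were not searched. The same peak is the nearest one to Rsad2, which encodes the antiviral enzyme viperin and lies beside Cmpk2, at 12.9 kb from an end of Rsad2.

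**Figure D1:**
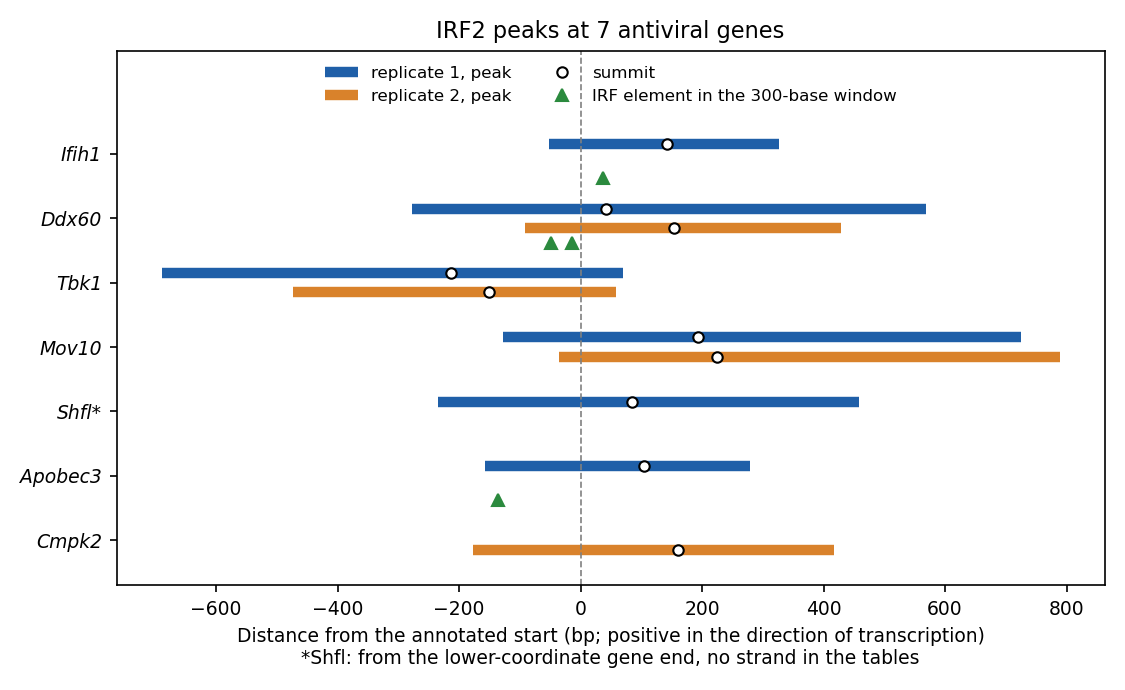
Extent of the IRF2 peaks (bars) and their summits (circles) around the annotated start of 7 genes, in bp, with the start nearest to the summit at 0; green triangles mark IRF elements found in the 300-base windows, which were not at hand for Shfl, drawn from its lower-coordinate end. Each bar crosses 0, Tbk1 has its summits to the left (214 and 150 bp before the start), and the other genes have theirs to the right.

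Member peaks counted 6 of 8 in replicate 1 and 4 of 8 in replicate 2, where 0.795% and 0.804% of all protein-coding genes had a peak midpoint within 5000 bp of an end. Joined regions of both libraries lay at 3 of 8 members and at 0.164% of all genes. Since the genes were picked on the peaks of these libraries together with their known functions, these counts largely restate the choice. Dhx58 is among the 8 although it has no peak within 5000 bp. No member had more than 1 peak in its body or within 5000 bp of it in either library. Across the 6 replicate 1 peaks the summit value ranged from 20 to 43 with a median of 34, beside 24 for the 143 peaks within 5000 bp of a gene end and 22.5 for the whole list. In replicate 2 the 4 peaks ranged from 12 to 20 with a median of 16.5, beside 14 for the 133 peaks near a gene end. Neither list had a member among its highest peaks.

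At the 3 genes with peaks in both libraries, the replicate 1 value was the higher one each time, by 3.08 times at Ddx60, 2.15 times at Tbk1 and 1.95 times at Mov10. The same ratio had a median of 3.08 over all 53 joined regions and ran from 0.85 to 7.5, so that of Ddx60 was equal to the median and those of Tbk1 and Mov10 were lower. As the scores of the libraries may not share a scale, the ratios describe the lists only. By mean rank, Tbk1 was number 22, Mov10 number 23 and Ddx60 number 44 of the 53 joined regions. By replicate 1 value alone they were number 33, 38 and 41, each with a value below the median of 58 over these regions. By replicate 2 value Tbk1 and Mov10 shared number 17, above the median value of 17, and Ddx60 was number 49, below it. All 10 member summits fell on multiples of 16 bp, as did 371 and 226 of all summits, so distances from a summit carry at least that grain.

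**Figure D2:**
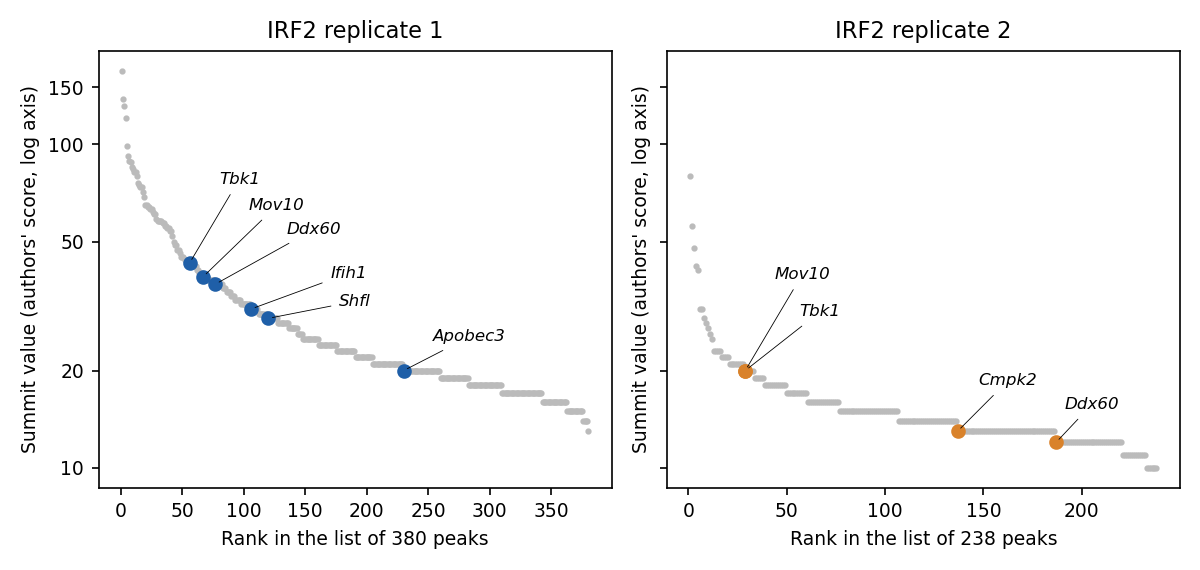
Summit value (the authors' score, log axis) against rank for every peak of replicate 1 (left) and replicate 2 (right), with peaks at the 7 genes in colour. Tbk1 and Mov10 lie in the upper part of both lists, while Ddx60 moves from rank 77 of 380 to rank 187 of 238.

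Where a start was annotated, the summits of 4 of 5 members in replicate 1 and 3 of 4 in replicate 2 lay downstream of it, between 41 and 225 bp, with Tbk1 the exception in both. This is near what all genes showed: of genes with a summit within 1000 bp of an annotated start, 56 of 82 (68.3%) in replicate 1 and 70 of 98 (71.4%) in replicate 2 had it downstream, with median positions of 142 and 159.5 bp after the start.

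The sequence of the windows was not used in choosing the genes, but the peaks were. The motif was chosen with earlier results of these data known, so the shares that follow are a description with no test. The element was present in 3 of the 8 windows of 6 member genes, at Ddx60, Ifih1 and Apobec3, beside 3.44% of all 32851 windows. It was also present in 23 of 73 windows under a replicate 1 peak (31.5%) and 10 of 86 under a replicate 2 peak (11.6%), members included. Among windows of the further pathway genes described below, it was present in 20 of 67, most of them at genes with no peak. With CT directly after it, it was found at Ddx60 and Apobec3, beside 0.271% of all windows, and the shorter motif AANNGAAA, which the element contains, at the same 3 genes beside 23.9% of all windows. Of the 55 further pathway genes with a window, 11 had the form with CT and 30 had the shorter motif. Among the 53 of them with no peak within 5000 bp, 10 had the form with CT. Ddx60 carried 2 separate copies, which 40 of 32851 windows (0.122%) did. Among windows overlapped by a peak it was the only one with 2 copies, of 73 in replicate 1 and 86 in replicate 2. A window with 2 copies was also present at 6 further pathway genes that had no peak within 5000 bp: Ifit1, Ifit3, Ifit3b, Ifitm3, Isg15 and Cmpk1. A match in letters does not show that the protein binds there.

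The share of windows with the element is given here by class of peak. The element was found in 9 of 25 windows under peaks of both libraries (36%, 95% Wilson interval 20.2 to 55.5), in 14 of 48 under a replicate 1 peak alone (29.2%, 18.2 to 43.2) and in 1 of 61 under a replicate 2 peak alone (1.64%, 0.29 to 8.72). Windows with no peak held it in 3.38% of cases (3.19 to 3.59). The intervals of the first and the second class lay above that of the replicate 2 class and did not overlap it. With CT after the element the counts were 1 of 25 under peaks of both libraries (4%, 0.71 to 19.5), 6 of 48 under a replicate 1 peak alone (12.5%, 5.86 to 24.7) and 0 of 61 under a replicate 2 peak alone (0%, 0 to 5.92). With this form the share under peaks of both libraries was below that under replicate 1 peaks alone, and its interval overlapped those of both other classes. All these intervals cover counting error only, windows of neighbouring or multi-start genes share sequence, and no test was made. The members' own windows are among those counted, and the genes were chosen on these peaks, so their matches are a description only. Of the members with a replicate 1 peak alone, Ifih1 and Apobec3 had the element and Shfl had no window. Of those with peaks in both libraries, Ddx60 had it. Tbk1 and Mov10 did not have it in their windows, which cover only part of their peaks. Cmpk2, with a replicate 2 peak alone, had none in the part of its peak that was searched. In the 23 windows with the element under a replicate 1 peak, distance to the summit was taken from the nearest copy found. Its median was 78 bp (6 to 561). Ddx60 at 55 bp was nearer than this median, and Ifih1 at 107 bp and Apobec3 at 239 bp were farther. The replicate 1 summit of Ddx60 lay inside its window, but those of Ifih1 and Apobec3 lay outside theirs. Sequence at those summits was not searched, so a closer copy could not be found, and the distances do not rank the genes.

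**Figure D3:**
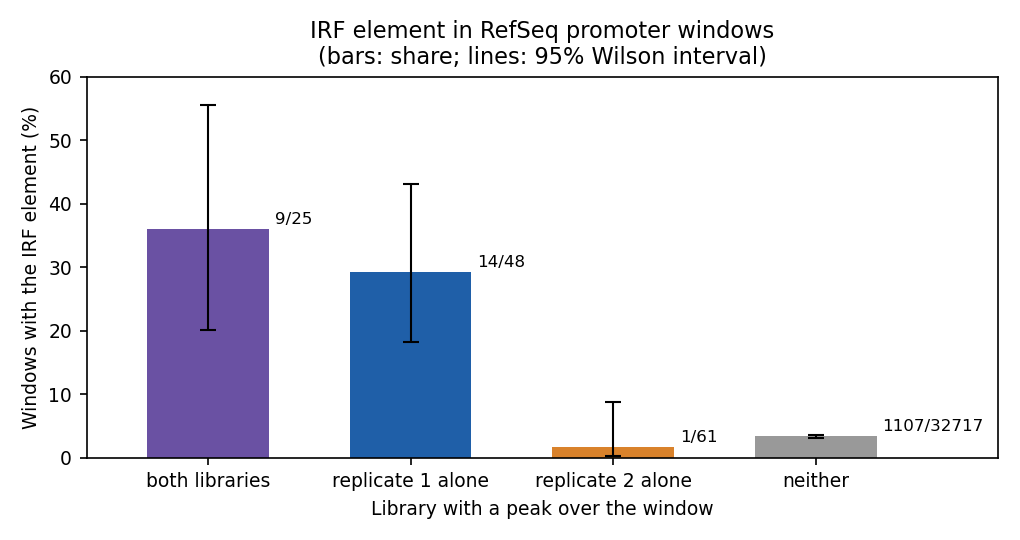
Share of 300-base RefSeq promoter windows that hold the IRF element (bars, with 95% Wilson intervals), by which library had a peak over the window. The share is 36% under peaks of both libraries and 29.2% under replicate 1 peaks alone, and 1.64% under replicate 2 peaks alone, with 3.38% where there is no peak.

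Among other genes of the pathway, Zc3hav1 and Trim30a had a peak. Of 64 further genes of RNA sensing, signalling and restriction, 61 were counted: Mx1, Mx2 and Oas1b are transcribed pseudogenes in the table and were left out. In replicate 1 a peak lay within 5000 bp of 2 of these 61 (3.28%), Zc3hav1 and Trim30a, beside 0.795% of all protein-coding genes. In replicate 2 a peak lay within 5000 bp of 1 (1.64%), Trim30a, beside 0.804% of all protein-coding genes. None of 9 further RNA sensors, 13 signalling genes, 9 effectors that respond to double-stranded RNA or 5 relatives of the members had one in either library. The median distance to the nearest peak was 1964 kb in replicate 1 and 2687 kb in replicate 2 for these 61 genes, beside 2357 and 3108 kb for all protein-coding genes.

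Zc3hav1 encodes ZAP, a protein that binds CpG-rich viral RNA and leads to its decay. Its replicate 1 peak (chr6:38353639-38354575) had a summit value of 32 and ranked 98 of 380, close to Ifih1. The summit was 523 bp downstream of the annotated start. In replicate 2 the nearest peak was 763 kb away. Trim30a, which encodes an interferon-inducible tripartite-motif protein, was near peaks of both libraries, with summit values of 57 (rank 34) and 15 (rank 77). Those midpoints were 4250.5 bp and 4252.5 bp from the end of the gene opposite its annotated starts, and the related gene Trim30c was nearer, at 3922.5 bp in replicate 1. Rsad2, at 12.9 kb, was the nearest of the genes without a peak.

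Further genes of the pathway had the element without a called peak. It was present in 20 of 67 windows, at 18 of the 55 further genes that had a window. Zc3hav1 was not among these 18, and Trim30a was, with its matches outside the peaks. Among 53 with no peak within 5000 bp in either library, 17 had the element, among them Isg15, Ifit1, Ifit3, Rsad2, Oas1a, Oas3, Eif2ak2, Bst2 and Rigi (under its older symbol Ddx58 in the table), which encode well-known interferon-induced proteins. These 9 examples were picked for their known functions after the matches were seen. Whether IRF2 was bound there below the calling threshold was not measured.

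**Figure D4:**
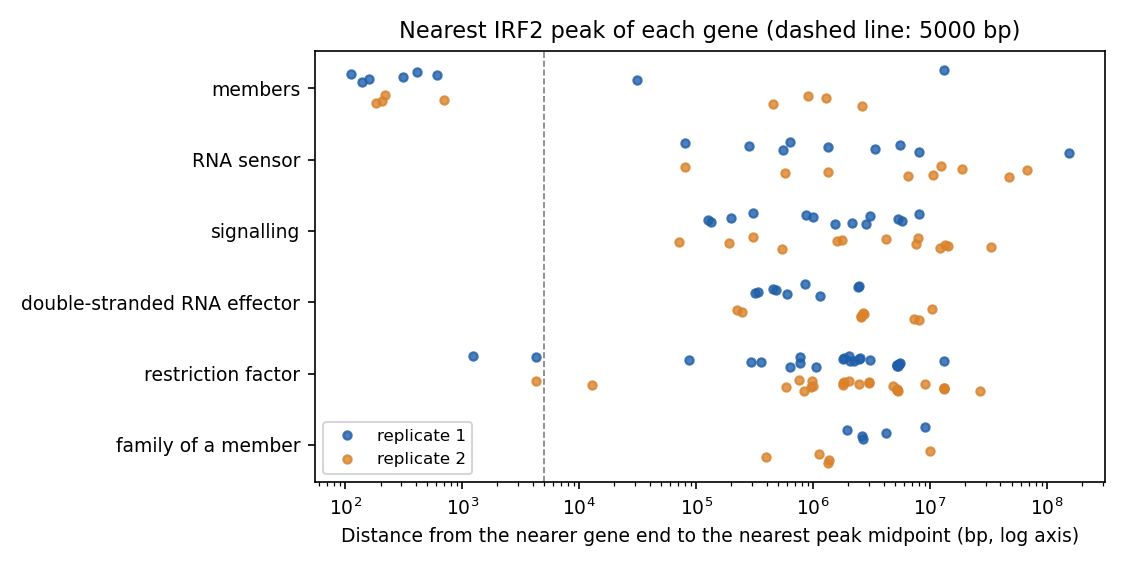
Distance in bp (log axis) from the nearer gene end to the nearest peak midpoint in each library, for the 8 members and the 61 further pathway genes by role. The dashed line marks 5000 bp; 6 members in replicate 1 and 4 in replicate 2 lie to its left, with Zc3hav1 and Trim30a the only further genes there.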

How the data were processed

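ChIP DNA came from chromatin fixed in 1% formaldehyde for 15 min, with 30 ug per precipitation, per the labels' protocols. The submitters' processing notes name BWA 0.7.12, MACS and the build mm10. For MACS, the version, the thresholds and any use of the inputs are not stated there. Each library was called separately, per the file headers, and the authors deposited its intervals with 1 whole-number score per summit, used here as the summit value. The replicate 2 deposit also held a copy of all 380 replicate 1 peaks, which was counted once.

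Interval starts were converted to 1-based positions. Distances run from the peak midpoint to the nearer end of a protein-coding gene in the RefSeq table of GRCm38.p6 (numbered chromosomes and both sex chromosomes); peaks overlapping by at least 1 bp were joined. Exon boundaries were not used. Motifs were searched on both strands of 32851 RefSeq promoter windows. Scripts ran in Python 3.11.15 with pandas 2.3.3 and scipy 1.17.1; distance, overlap and motif functions were tested on simulated data. No test across genes was made.

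The members, the pathway list and the motif were chosen with earlier results of these data known. Genes named are all members, pathway genes with a peak within 5000 bp, the nearest without one, and protein-coding neighbours within 5000 bp of a member peak; others are said to be picked later. Alternatives were other windows, the higher-scored 50% of each list, summit distances, annotated starts, stricter overlap, either library alone and other motifs.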

Additional observations from a re-analysis of the deposited data

How the results depend on the processing

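The members with a peak were the same genes with windows of 1000 and 25000 bp and with distances from the summit, and the 3 members at joined regions were the same genes with a reciprocal overlap of 50% or with summits within 500 bp. With annotated starts alone, Shfl, which has none in the table, dropped out. Keeping the higher-scored 50% of each list left 2 members in replicate 2 (Tbk1 and Mov10, without Ddx60 and Cmpk2), and in replicate 1 removed Apobec3. Joined regions then lay at 2 members, Tbk1 and Mov10. With 1 library left out, the count of members at a called region was 4 to 6 in place of 3, and that of further pathway genes 1 to 2 in place of 2. That pathway count was 0 with a window of 1000 bp, by which Zc3hav1 and Trim30a are lost, and 1 with annotated starts alone. With a window of 25000 bp the pathway count was 3. The median distance of the 10 member peaks from the nearest protein-coding gene end was 212 bp from the midpoint and 190.5 bp from the summit. The element was found at 2 member genes in place of 3 when followed by CT or when searched in the 250 bases before the start, where that of Ifih1 does not lie. No paired analysis was possible because both peak lists belong to the same group, and no list of an input was used. With read depth unknown, what depth limits in either list cannot be given as a number.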
